A study of Homo sapiens with 6 samples.

Results

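The results below follow 9 chemokine genes that are known for drawing monocytes and lymphocytes: CCL2, CCL5, CCL20, CCL28, CX3CL1, CXCL10, CXCL11, CXCL12 and CXCL16. They were picked by name, as 9 of the 58302 genes of the deposited count table. The RNA came from PC-3, a long-established prostate cancer line first grown from a metastasis to bone. In the vector group (3 libraries) the cells had received a blank lentivirus. In the BHLHE22 group (3 libraries) the lentivirus overexpressed BHLHE22, a transcription factor of the basic helix-loop-helix (bHLH) family. Both groups therefore carried a lentivirus and differed by its BHLHE22 insert. The sources used here do not give the promoter of the insert, the time after infection, or whether the cells were a clone or a pool. They also do not say that the libraries of a group were separate cultures, so the p-values describe the scatter of these libraries, which may be technical.

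Chemokines are small secreted proteins that guide leukocytes along a gradient by binding G protein-coupled receptors. CXCL10 and CXCL11 are induced by interferon and bind CXCR3 on T and NK cells, CCL20 binds CCR6 and is a classical NF-kappaB target of epithelial cells, and CCL28 is a mucosal epithelial chemokine for CCR10 and CCR3. CXCL16 and CX3CL1 are made as membrane proteins that proteases can release, CCL2 binds CCR2 on monocytes, CCL5 binds several receptors, and CXCL12 is the ligand of CXCR4 in bone marrow.

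The overexpressed gene was checked first. BHLHE22 had 1 count in each vector library and 98, 92 and 133 counts in BHLHE22 replicates 1 to 3. The ratio of the group sums, scaled by library size, was 104 with an exact 95% interval of 35.4 to 509. The adjusted p was 1.01e-05 (edgeR quasi-likelihood). BHLHE22 passed the fit's filter on low counts only through the BHLHE22 libraries, so it had to differ to be tested. The libraries therefore differed in BHLHE22 RNA in the direction of their labels. These counts cannot tell the insert's RNA from that of the cells' own gene.

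Total counts were 12186723 to 15949537 per library, and the edgeR fit tested 15945 genes. Levels are given in CPM, the count divided by the scaled library size, as mean ± SD of 3 libraries, and a difference as the log2 fold change of BHLHE22 over vector with its standard error (SE). A gene is said to have risen or fallen when its adjusted p was under 0.05. Of 14 blood-cell marker genes, 5 (CD3E, HBB, MS4A1, NKG7 and TYROBP) had no counts in any library, and the summed level of all 14 was 3.47 to 4.22 CPM in vector and 1.22 to 2.04 CPM in BHLHE22 libraries. The difference in this sum rested on CD14: without it the sum was 0.543 to 2.04 CPM in vector and 0.788 to 1.44 CPM in BHLHE22 libraries, which overlapped. The part of such RNA in the chemokine values was not tested. Keratin genes of epithelial cells were plentiful: KRT8 stood at 197 ± 18.9 CPM in vector and 159 ± 6.4 CPM in BHLHE22 libraries. The luminal prostate gene KLK3 had no counts in any library. In bulk RNA, more cells that make a transcript and more of it per cell cannot be told apart.

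Among the 9 genes, CCL20, CXCL16, CCL28 and CXCL11 passed the filter on low counts and rose. Gene positions below are those of the deposited table, in GRCh38. CXCL10 did not pass the filter but had 36 of its 37 counts in the BHLHE22 libraries. CCL2 and CXCL12 had a few counts in both groups, and CCL5 and CX3CL1 had a few in the BHLHE22 libraries only. No member fell. Across all tested genes, 25.1% rose, 24.3% fell and 49.4% changed in either direction. The count of 4 is not evidence about the 9 genes as a group, since CXCL11 and CCL20 passed the filter through the BHLHE22 libraries and had to differ: the filter level of 0.702 CPM, needed in 3 libraries, was exceeded by 0 and 1 of the 3 vector libraries for these genes. CCL28 exceeded it in 2 vector and 3 BHLHE22 libraries, and CXCL16 in all 6. The CPM groups did not overlap for 5 of the 9 genes, CCL20, CCL28, CXCL10, CXCL11 and CXCL16, while they did not overlap for 60.5% of all tested genes, with BHLHE22 higher in 30.6%.

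The upstream sequences of 3 members are shown, since CXCL10 and CXCL11 lie side by side and moved together, and CCL20 had a large fold change. RefSeq promoter sequences (build GRCh38.p14) were matched for 5 of the 9 genes, CCL20, CCL28, CXCL10, CXCL11 and CXCL12, and those of CCL2, CCL5, CX3CL1 and CXCL16 were not used here. The 250 bases before each RefSeq start were searched on both strands for an interferon-stimulated response element (ISRE, searched as GAAA, any 2 bases and GAAA), a gamma-activated site (GAS, TTCNNNGAA), the kappaB consensus and the E-box CANNTG. Of the 5 genes searched, CXCL10, CXCL11 and CCL20 are also those with an ISRE, GAS or kappaB match. CCL28, which also rose in the reported fit, had none. A link between such matches and the changes was not tested. The other 4 members, among them CXCL16, which rose, were not searched. Bases in GENCODE 29 exons of the gene were left out, and capitals mark the matches other than E-boxes. The CXCL10 sequence is the minus strand of chr4:76023498-76023747, the CXCL11 sequence the minus strand of chr4:76036198-76036320, and the CCL20 sequence the plus strand of chr2:227813592-227813821.
CXCL10: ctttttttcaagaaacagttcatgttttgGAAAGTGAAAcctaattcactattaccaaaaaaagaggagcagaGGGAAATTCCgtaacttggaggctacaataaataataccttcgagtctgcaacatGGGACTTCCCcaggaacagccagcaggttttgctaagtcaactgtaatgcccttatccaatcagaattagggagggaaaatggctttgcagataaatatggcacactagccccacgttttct
CXCL11: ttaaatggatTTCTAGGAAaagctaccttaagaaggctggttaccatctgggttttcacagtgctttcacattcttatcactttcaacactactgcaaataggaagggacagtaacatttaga
CCL20: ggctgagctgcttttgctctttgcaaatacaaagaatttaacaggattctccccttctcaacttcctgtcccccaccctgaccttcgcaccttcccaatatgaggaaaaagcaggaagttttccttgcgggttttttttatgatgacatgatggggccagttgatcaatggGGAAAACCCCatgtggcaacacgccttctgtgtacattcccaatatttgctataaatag

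In CXCL10, the ISRE match GAAAGTGAAA lay 212 to 221 bases before the start, and kappaB matches lay 168 to 177 (GGGAAATTCC) and 113 to 122 bases before it (GGGACTTCCC, a match on both strands). In CXCL11, a GAS match, TTCTAGGAA, lay 232 to 240 bases before the start. A kappaB match lay 67 to 76 bases before it, within a longer first exon that GENCODE 29 gives CXCL11 and therefore not printed. That match had the same 10 letters, GGGAAATTCC, as the farther kappaB match of CXCL10. The shared letters were looked for after they had been seen, and 52 of 35116 promoter windows, or 0.148%, held them. In CCL20, a kappaB match on the minus strand lay 70 to 79 bases before the start and shared 1 base with the E-box CATGTG. The second E-box of CCL20, CAGTTG, lay 88 to 93 bases before the start.

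No ISRE, GAS or kappaB match stood in the windows of CCL28, which has 2 RefSeq starts, or of CXCL12. Among all 35116 windows, 3.02% held an ISRE match, 6.57% a GAS match and 9.96% a kappaB match. An E-box, the kind of site that bHLH factors bind, was in 61.8% of windows, so its presence in CCL20, CCL28, CXCL10 and CXCL11 is common. The form CATATG was in 2.63% of all windows and in none of these 5 genes. A match is a string of letters and not a measured binding site, and binding was not measured here.

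CXCL11 (ENSG00000169248, minus strand of chr4:76033682-76041415) had no counts in the 3 vector libraries. It had 38, 38 and 68 counts in BHLHE22 replicates 1 to 3, or 2.96, 2.72 and 4.07 CPM. Every BHLHE22 library was above every vector library. Set against the limit that a count of 0 allows, 3 counts over the vector group, CXCL11 was 46.6-fold higher in BHLHE22 libraries. Its adjusted p was 0.000365 (edgeR quasi-likelihood), and at most 0.00255 over the alternative fits. A value over 3 counts takes the counts of the other group without error. The exact 95% lower limit of the CXCL11 ratio, which includes that error, was 37.4. Exact intervals of this kind cover counting error only.

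CXCL10 (ENSG00000169245, minus strand of chr4:76021117-76023497), which binds the same receptor as CXCL11 and lies 10.2 kb from it, had 0, 1 and 0 counts in the vector libraries. It had 9, 9 and 18 counts in the BHLHE22 libraries. The groups did not overlap, and the highest library of both genes was BHLHE22 replicate 3. The scaled count ratio was 34.9, with an exact 95% interval of 5.88 to 1417, which is wide because the vector group held 1 count. Without vector replicate 2, which held that count, CXCL10 was 7.58-fold higher over 3 counts, and without vector replicate 3 the ratio was 23.2. CXCL10 was left out of the reported fit as a low-count gene. With no filter beyond 1 count its adjusted p was 0.000317 (edgeR quasi-likelihood). In the 4 fits without 1 library in which it passed the filter, the adjusted p was 0.00515 to 0.00831 (edgeR quasi-likelihood). There it passed only through the BHLHE22 libraries, so that it had to differ to be tested. FPKM is the deposited level per gene length and library size. The ratio of CXCL10 to CXCL11 FPKM was 0.438, 0.438 and 0.489 in BHLHE22 replicates 1 to 3. With only 9, 9 and 18 CXCL10 counts behind these ratios, a moderate difference in proportion between the libraries could not be seen. The gene ART3 overlaps both on the opposite strand, and it is not stated in the labels if strand was kept in counting. ART3 itself had 3 counts in all libraries together.

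**Figure D1:**
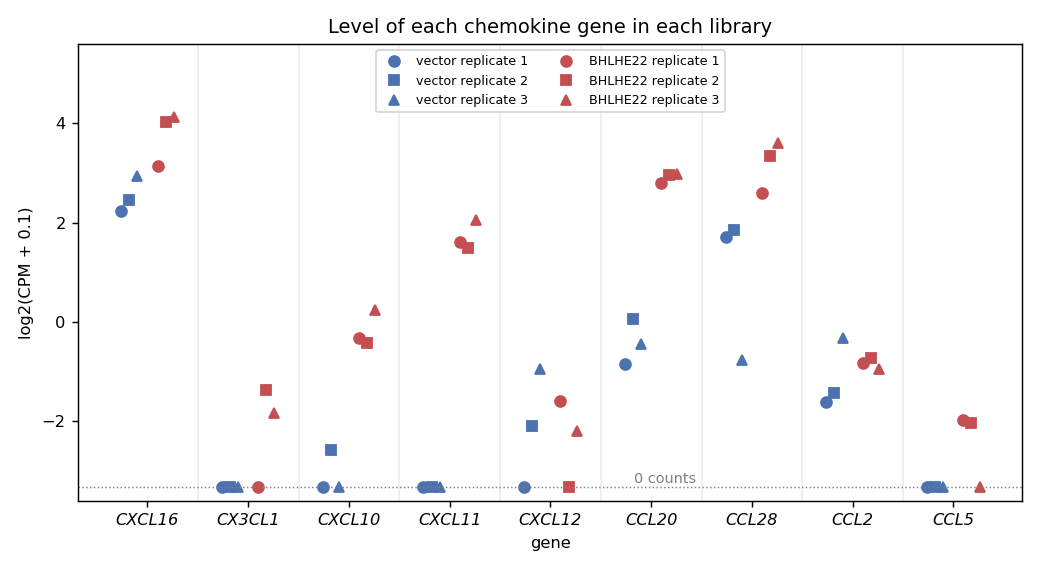
Level of each of the 9 chemokine genes in each of the 6 libraries, as log2 of CPM plus 0.1; blue marks are vector and red marks BHLHE22 libraries, the shape gives the replicate number, and the dotted line is a count of 0. The groups are separate for CXCL16, CXCL10, CXCL11, CCL20 and CCL28, and overlap for the other 4 genes.

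CCL20 (ENSG00000115009, plus strand of chr2:227813842-227817564), the CCR6 ligand that attracts Th17 cells and immature dendritic cells, had 6, 14 and 9 counts in vector replicates 1 to 3. It had 88, 108 and 130 counts in the BHLHE22 replicates. In CPM these were 0.453, 0.95 and 0.633 against 6.85, 7.73 and 7.78. The lowest BHLHE22 library stood well above the highest vector library, and the BHLHE22 libraries were close to each other. The mean rose from 0.679 ± 0.252 to 7.46 ± 0.52 CPM, a log2 fold change of 3.43 (edgeR quasi-likelihood, SE 0.25, adjusted p = 0.000106). Over the alternative fits the log2 fold change was 3.22 to 3.76, with an adjusted p of at most 0.000819. Among the tested members with counts in both groups, CCL20 had the largest fold change in that fit.

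CCL28 (ENSG00000151882, minus strand of chr5:43376645-43412391), which attracts antibody-secreting and memory lymphocytes to mucosa, had 42, 52 and 7 counts in vector replicates 1 to 3. It had 76, 140 and 201 counts in the BHLHE22 replicates. The CPM values were 3.17, 3.53 and 0.492 against 5.92, 10.03 and 12.04. Vector replicate 3 stood far below the other two vector libraries, and the groups did not overlap. The mean rose from 2.40 ± 1.66 to 9.33 ± 3.12 CPM, a log2 fold change of 1.96 (edgeR quasi-likelihood, SE 0.61, adjusted p = 0.0375). That call was not stable. The adjusted p was 0.131 with no filter beyond 1 count, 0.0664 without vector replicate 1, 0.0575 without vector replicate 2, 0.0951 without BHLHE22 replicate 2 and 0.105 without BHLHE22 replicate 3. Without the low vector replicate 3, the log2 fold change was 1.49 with an adjusted p of 0.0113.

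CXCL16 (ENSG00000161921, minus strand of chr17:4733526-4739922), the membrane-bound CXCR6 ligand that is also a scavenger receptor for oxidized lipoprotein, had 61, 79 and 108 counts in vector replicates 1 to 3. It had 112, 225 and 290 counts in the BHLHE22 replicates. The CPM values were 4.604, 5.362 and 7.59 against 8.72, 16.1 and 17.4. BHLHE22 replicate 1 was the lowest of its group and lay just above the highest vector library. The mean rose from 5.85 ± 1.55 to 14.1 ± 4.7 CPM, a log2 fold change of 1.27 (edgeR quasi-likelihood, SE 0.30, adjusted p = 0.0112). CXCL16 kept its call when any library was left out, with log2 fold changes of 1.09 to 1.52 and a highest adjusted p of 0.0494, which came without vector replicate 2. MED11 overlaps CXCL16 by 85 bases on the opposite strand. MED11 had 496 counts in all and a log2 fold change of -0.09 (SE 0.14).

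The other 4 genes were too low to be tested in the reported fit. CCL2 (ENSG00000108691, chr17:34255218-34257203), the main monocyte chemokine of the set, had 3, 4 and 10 counts in vector and 6, 7 and 7 in BHLHE22 libraries. The groups overlapped. Its scaled count ratio was 1.14, with an exact 95% interval of 0.568 to 2.32, and the ratio was 1.84 without vector replicate 3, the highest vector library. With no filter beyond 1 count its adjusted p was 0.811 (edgeR quasi-likelihood). A change of up to 2.32-fold higher or 1.76-fold lower was therefore within counting error.

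CXCL12 (ENSG00000107562, chr10:44370165-44386493), the marrow ligand of CXCR4, had 0, 2 and 6 counts in vector and 3, 0 and 2 in BHLHE22 libraries. Its ratio was 0.606, with an exact 95% interval of 0.156 to 2.102, and went to 1.61 without vector replicate 3 and to 0.344 without BHLHE22 replicate 1. CX3CL1 (ENSG00000006210, chr16:57372458-57385048), also called fractalkine, had no counts in vector libraries and 0, 4 and 3 in BHLHE22 libraries. That is 2.26-fold higher over the limit of 3 counts, and the exact 95% lower limit of its ratio was 1.40. The value over 3 counts was 1.43- to 1.55-fold without BHLHE22 replicate 2 or any of the vector replicates. CCL5 (ENSG00000271503, chr17:35871491-35880793), also called RANTES, had no counts in vector libraries and 2, 2 and 0 in BHLHE22 libraries. That is 1.29-fold higher over 3 counts, but the exact 95% lower limit of its ratio was 0.640. The value over 3 counts dropped to 0.842-fold without vector replicate 2. It was under 1 in each fit without 1 library except that without BHLHE22 replicate 3. With no filter beyond 1 count, the adjusted p was 0.693 for CXCL12, 0.1004 for CX3CL1 and 0.220 for CCL5 (edgeR quasi-likelihood). For these 3 genes and CCL2 the groups overlapped. For CXCL12, CCL5 and CCL2 a difference was not detectable at this depth. For CX3CL1 the exact lower limit lay above equal levels, but it covers counting error only, and the edgeR fit gave no call.

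Levels between genes are compared per gene length. In vector libraries, CXCL16 was the highest member at 1.14 ± 0.33 FPKM, followed by CCL28 at 0.357 ± 0.244, CCL20 at 0.226 ± 0.079 and CCL2 at 0.116 ± 0.079. CXCL16 was above CCL28 in the range of its libraries, whereas CCL28 overlapped CCL20, and CCL20 overlapped CCL2. CXCL12 and CXCL10 were at 0.0212 ± 0.0250 and 0.0178 ± 0.0308 FPKM, and CCL5, CX3CL1 and CXCL11 were at 0.

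In BHLHE22 libraries the order was different. CXCL16 at 3.03 ± 1.01 FPKM and CCL20 at 2.77 ± 0.19 overlapped at the top. CXCL11 at 1.57 ± 0.36 and CCL28 at 1.56 ± 0.52 overlapped below them. CXCL10 at 0.723 ± 0.214 and CCL2 at 0.146 ± 0.012 came next, each apart from its neighbours. CCL5 (0.0491 ± 0.0427), CXCL12 (0.0147 ± 0.0146) and CX3CL1 (0.0126 ± 0.0117) were at the bottom and overlapped.

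**Figure D2:**
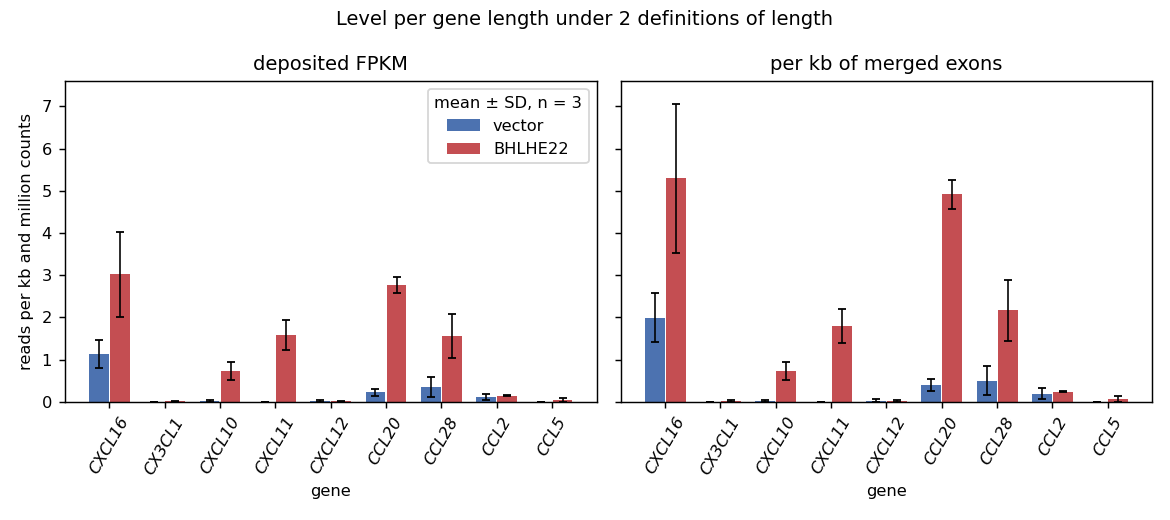
Level of each chemokine gene per kilobase of gene length, scaled to library size, as mean (bars) and SD (error bars) of 3 libraries per group, with the deposited FPKM on the left and counts per kilobase of merged exons on the right. CXCL16 and CCL20 are the highest pair in BHLHE22 libraries with either length, and the order of CXCL11 and CCL28 turns.

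The deposited FPKM rests on a length that counts overlapping exons of different transcripts more than once. For 97.2% of 25832 genes it equalled the sum of all distinct exons within 0.1%, and for 38.1% the length of the merged exons. CXCL16, for instance, has a deposited length of 4886 bases and merged exons of 2794 bases, whereas CXCL10 has 1176 bases by both. With merged exons, chosen as an alternative after the data were seen, the levels in BHLHE22 libraries were 5.30 ± 1.76 for CXCL16 and 4.92 ± 0.34 for CCL20. CCL28 at 2.17 ± 0.73 then stood before CXCL11 at 1.79 ± 0.41, still overlapping, and CX3CL1 before CXCL12. The length is the same in all libraries, so it does not enter any fold change.

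The 9 genes together made up a small part of the chemokine RNA of these cells. Their summed level was 1.88 ± 0.25 FPKM in vector and 9.87 ± 2.03 FPKM in BHLHE22 libraries, while that of all chemokine ligand genes of the table was 359 ± 26 and 1634 ± 66 FPKM. The share of the 9 was 0.523 ± 0.038% in vector and 0.601 ± 0.101% in BHLHE22 libraries, and the ranges of the groups (0.484 to 0.560% and 0.496 to 0.698%) overlapped. With merged exons the shares were 0.725 ± 0.075% and 0.794 ± 0.131%.

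Of the 37 other chemokine ligand genes in the table, 21 had no count in any library and 8 were tested. Of these, 7 rose and 1 fell, beside 25.1% and 24.3% of all tested genes. The median log2 fold change of the 8 was 1.81, beside 0.0038 over all tested genes. PF4 passed the filter only through the BHLHE22 libraries, and the rise of most of these genes was known when the list was written. CXCL8, CXCL1, CXCL6 and CXCL3 are ligands of CXCR2, which attract neutrophils and myeloid cells. CXCL8 (interleukin 8) rose from 172 ± 26 to 826 ± 51 CPM, a log2 fold change of 2.26 (edgeR quasi-likelihood, SE 0.12, adjusted p = 2.93e-05). CXCL1 rose by 1.75, CXCL6 by 1.79 and CXCL3 by 2.44 on the log2 scale. CCL26, an eosinophil chemokine that binds CCR3, was the gene that fell, from 31.0 ± 14.7 to 5.95 ± 0.51 CPM (edgeR quasi-likelihood: log2 fold change -2.38, SE 0.34, adjusted p = 0.00187). It is named after its value was seen. The count of genes that fell was 2 without vector replicate 3 or without any of the BHLHE22 replicates.

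**Figure D3:**
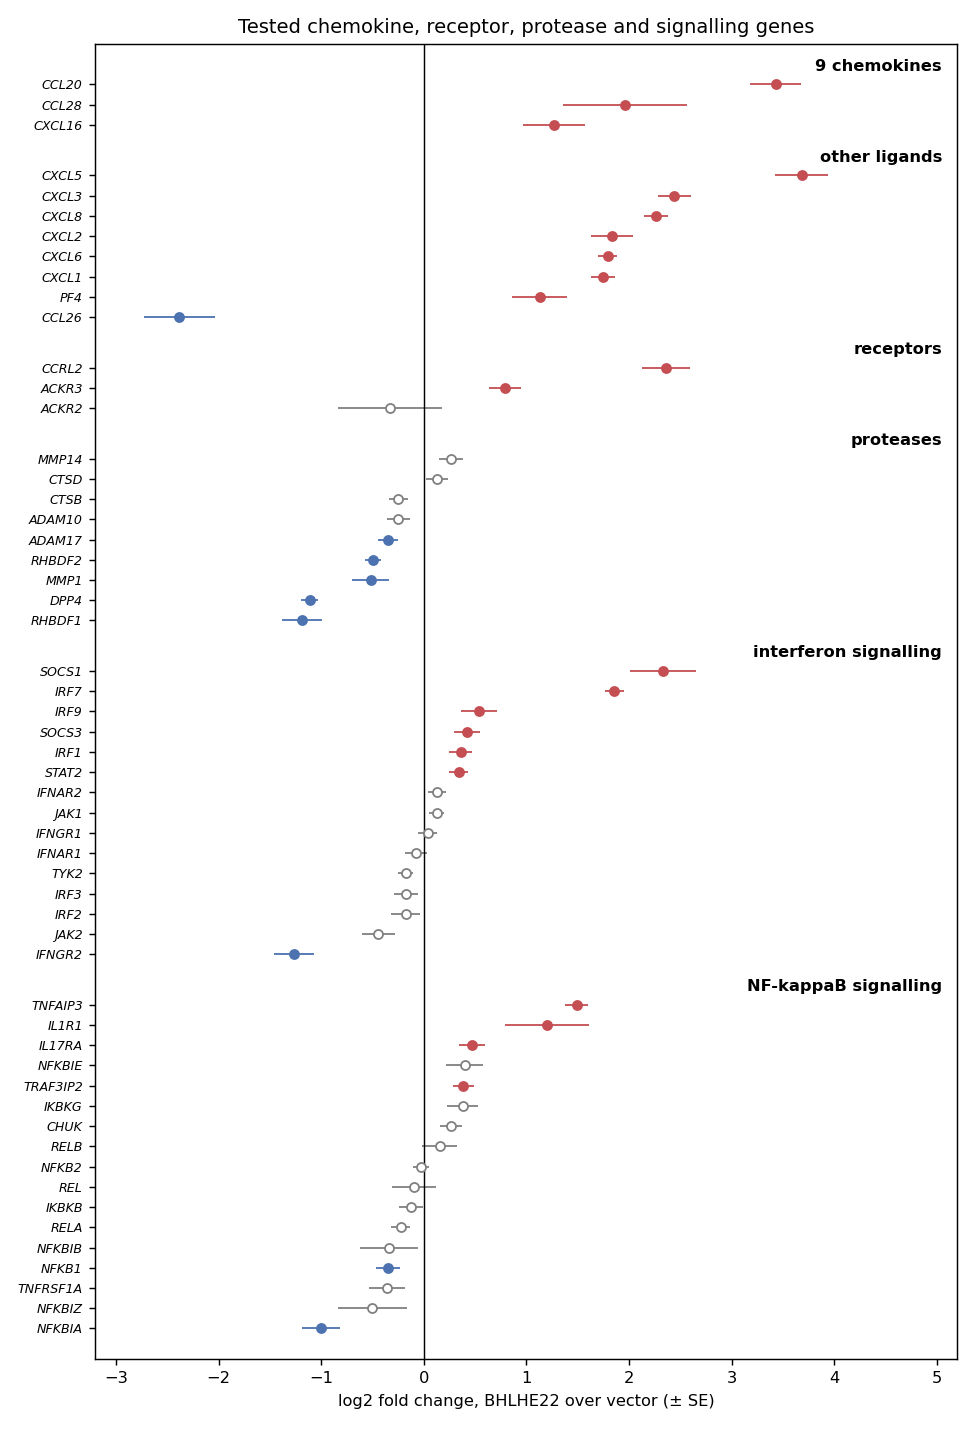
Log2 fold change of BHLHE22 over vector with its SE (lines) for tested genes of the 9 chemokines and of the other ligand, receptor, protease, interferon and NF-kappaB lists, with the genes not reported here left out; red marks rose, blue marks fell and open grey marks did not pass the test. CXCL11 is left out because its vector count is 0; CCL20 at 3.43 and CXCL5 lie farthest to the right, and CCL26 at -2.38 farthest to the left.

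The receptors of the 9 chemokines were sparse in these cells. CXCR3 had no counts, CCR6 had 1 in vector and none in BHLHE22 libraries, CXCR6 none and 2, and CX3CR1 3 and none. CCR2, the receptor of CCL2, had 1, 5 and 1 counts in vector libraries and none in BHLHE22 libraries. That is 2.40-fold lower over 3 counts, and the exact 95% upper limit of its ratio was 0.673. CCR10, the receptor of CCL28, had 25 counts in vector and 27 in BHLHE22 libraries, a ratio of 1.05 (exact 95% interval 0.585 to 1.88). CXCR4, the receptor of CXCL12, had 3, 2 and 1 counts in vector and 7, 13 and 11 in BHLHE22 libraries. The CXCR4 groups did not overlap, and the ratio was 5.01 with an exact 95% interval of 2.06 to 14.7.

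ACKR3, a scavenging receptor of CXCL11 and CXCL12, rose from 5.03 ± 0.30 to 8.75 ± 1.24 CPM (edgeR quasi-likelihood: log2 fold change 0.80, SE 0.16, adjusted p = 0.00452). CCRL2, an atypical receptor that presents chemerin, rose from 1.66 ± 0.39 to 8.51 ± 1.68 CPM, by 2.36 on the log2 scale (adjusted p = 0.000301 in the same edgeR fit). These 2 were the tested receptors that rose, ACKR2 did not pass the test and none fell, of 23 listed. Of all tested genes, 25.1% rose and 24.3% fell. The median log2 fold change over the 3 tested receptors was 0.80. The number that rose was 4 without vector replicate 1 or BHLHE22 replicate 1, where the median was 2.27 and 2.41. The median was 0.51 without BHLHE22 replicate 3 and 0.03 with no filter beyond 1 count. CCR1, a CCL5 receptor named after its value was seen, had 0 counts in vector libraries and 7, 16 and 24 in BHLHE22 libraries. That is 15.2-fold higher over 3 counts, and the exact 95% lower limit of its ratio was 11.9.

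Proteases decide how much CXCL16 and CX3CL1 leaves the cell surface, and trim CXCL10, CXCL11 and CXCL12. Of 17 listed protease genes and regulators, 9 were tested, 5 fell and none rose, with a median log2 fold change of -0.35. Among all tested genes, 24.3% fell, 25.1% rose and 49.4% changed in either direction. DPP4, the dipeptidyl peptidase that shortens CXCR3 ligands and CXCL12 at the amino end, fell from 168 ± 4 to 77.5 ± 6.6 CPM (edgeR quasi-likelihood: log2 fold change -1.11, SE 0.09, adjusted p = 0.000135). The iRhom genes RHBDF1 and RHBDF2, which carry ADAM17 to the cell surface, fell by 1.18 (adjusted p = 0.00223) and 0.50 (adjusted p = 0.00141) on the log2 scale in the same edgeR fit. ADAM17, the inducible sheddase, had -0.35 (edgeR quasi-likelihood, SE 0.10, adjusted p = 0.0187). ADAM10, the constitutive sheddase of CXCL16 and CX3CL1, went from 79.5 ± 9.1 to 66.8 ± 5.5 CPM and did not pass the test (adjusted p = 0.0986, edgeR quasi-likelihood). ADAM17 lost its call with unscaled library sizes (adjusted p = 0.0937), where the median of all genes moves up by 0.146, and in 4 fits with a library left out, namely vector replicate 1, vector replicate 2, BHLHE22 replicate 2 and BHLHE22 replicate 3 (0.0555 to 0.0585). The count of proteases that fell was 3 with unscaled sizes and also without vector replicate 1, BHLHE22 replicate 2 or BHLHE22 replicate 3. With unscaled sizes MMP14 rose, named after its value was seen.

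All 16 genes of interferon signalling, the pathway that classically induces CXCL10 and CXCL11, were tested. Of the 16, 7 rose, 1 fell and 8 did not pass the test, with a median log2 fold change of 0.13. Among all tested genes, 25.1% rose, 24.3% fell and 49.4% changed in either direction. IRF7, which amplifies type I interferon, rose from 19.7 ± 1.0 to 71.6 ± 3.2 CPM (edgeR quasi-likelihood: log2 fold change 1.86, SE 0.09, adjusted p = 2.26e-05). SOCS1, a feedback inhibitor of the pathway, rose by 2.33 on the log2 scale, from 0.336 ± 0.125 to 1.71 ± 0.16 CPM, and passed the filter only through the BHLHE22 libraries, so that it had to differ to be counted. IFNGR2, a chain of the interferon gamma receptor, fell from 67.8 ± 10.6 to 28.2 ± 6.7 CPM (edgeR quasi-likelihood: log2 fold change -1.27, adjusted p = 0.0017). The number that rose was 4 without vector replicate 3, BHLHE22 replicate 1 or BHLHE22 replicate 2, and 2 genes fell without vector replicate 3.

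Of 17 genes of NF-kappaB and interleukin 17 signalling, which induce CCL20 in epithelial cells, 4 rose, 2 fell and 11 did not pass the test. Among all tested genes, 25.1% rose, 24.3% fell and 49.4% changed in either direction. The median log2 fold change of the 17 genes was -0.03. That median turned to 0.12 with unscaled library sizes, 0.0036 without BHLHE22 replicate 2 and 0.13 without BHLHE22 replicate 3. TNFAIP3, a feedback inhibitor known as A20, rose from 15.9 ± 1.8 to 44.7 ± 1.5 CPM (edgeR quasi-likelihood: log2 fold change 1.49, SE 0.12, adjusted p = 0.000134). NFKBIA, which holds NF-kappaB in the cytoplasm, fell from 277 ± 77 to 138 ± 9 CPM (edgeR quasi-likelihood: log2 fold change -1.003, SE 0.19, adjusted p = 0.00416). The interleukin 17 receptor gene IL17RA rose by 0.47 and that of its adaptor, TRAF3IP2, by 0.39 on the log2 scale. Their adjusted p was 0.0163 and 0.0132 (edgeR quasi-likelihood), and the calls were lost without vector replicate 1 (0.0586) and without BHLHE22 replicate 2 (0.0587), in that order. The count of genes that fell was 1 without vector replicate 1, vector replicate 2, BHLHE22 replicate 1 or BHLHE22 replicate 2, and 4 without vector replicate 3. With unscaled library sizes 7 rose and 1 fell.

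**Figure D4:**
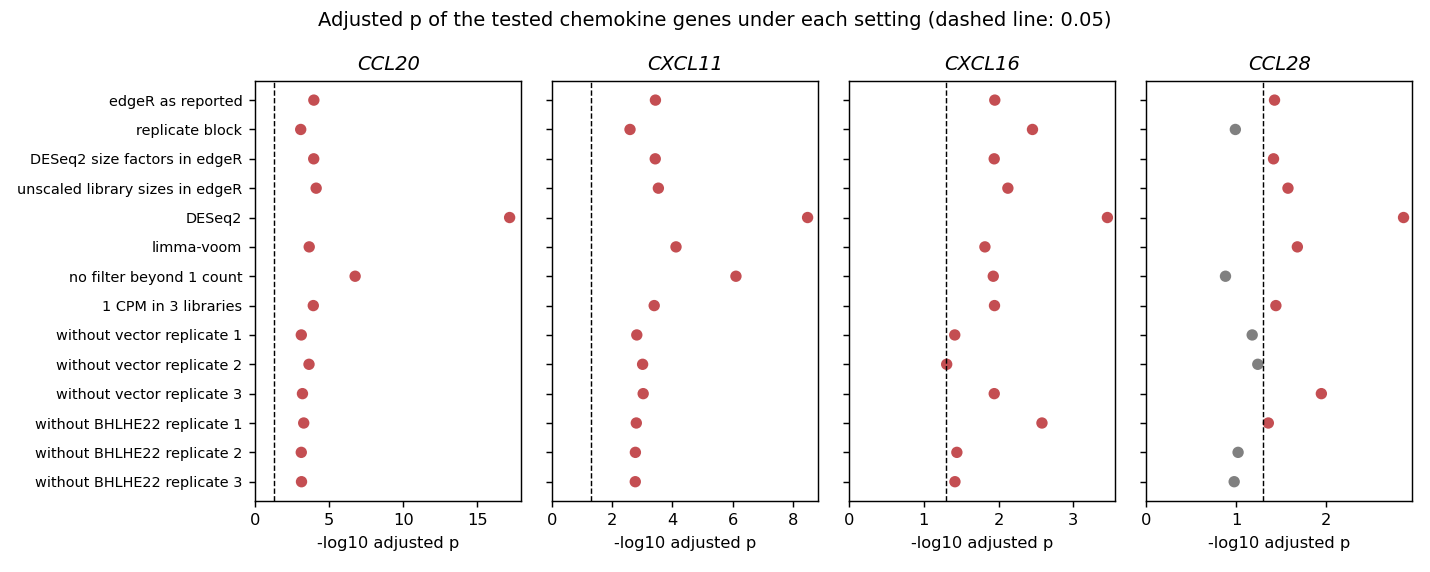
Minus log10 of the adjusted p of the 4 tested chemokine genes, 1 panel each with its own axis, under the reported edgeR fit and 13 alternatives; the dashed line is 0.05, and grey marks are fits without a call. CCL20, CXCL11 and CXCL16 stay to the right of the line in every fit shown, and CCL28 lies to its left in 6.

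The genes near the members were examined last. Within 100 kb lay 81 other genes, of which 21 were tested, 7 rose and 4 fell, with a median log2 fold change of 0.22, or 0.44 without vector replicate 3. Thus 11 of the 21 were called, beside 49.4% of all tested genes. DAW1, a dynein assembly gene 53.5 kb downstream of CCL20, had 4, 5 and 7 counts in vector libraries and 38, 58 and 93 in BHLHE22 libraries. Its log2 fold change of 3.46 (edgeR quasi-likelihood, SE 0.35, adjusted p = 0.000318) stood beside 3.43 for CCL20, and the CPM groups did not overlap. Like CCL20, DAW1 passed the filter through the BHLHE22 libraries, so that it was tested at all required a difference. It was the only tested gene within 100 kb of CCL20.

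The other called neighbours had log2 fold changes between -0.96 and 0.70. Beside CXCL10 and CXCL11, NAAA, a lysosomal amidase gene, rose by 0.70 and NUP54, a nuclear pore gene, by 0.38 on the log2 scale. Beside CXCL16, the kinase gene MINK1, 93.5 kb away, had a log2 fold change of -0.43. Beside CCL28, C5orf34 rose by 0.46 and NIM1K by 0.69 on the log2 scale, and the pseudogene EEF1A1P19 fell by 0.96. EEF1A1P19 resembles the abundant EEF1A1, so its reads may be shared with it.

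TAF15, 6.88 kb from CCL5, rose by 0.65 on the log2 scale while CCL5 had 4 counts in all. Beside CX3CL1, CIAPIN1 had a log2 fold change of 0.54, POLR2C -0.59 and PLLP -0.84. C5orf34, NIM1K, CIAPIN1 and NUP54 each lost their call without some of the libraries, with adjusted p up to 0.0884, 0.0777, 0.0998 and 0.104 (edgeR quasi-likelihood). The count of neighbours that rose was 4 without vector replicate 1, vector replicate 2 or BHLHE22 replicate 3.

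**Figure D5:**
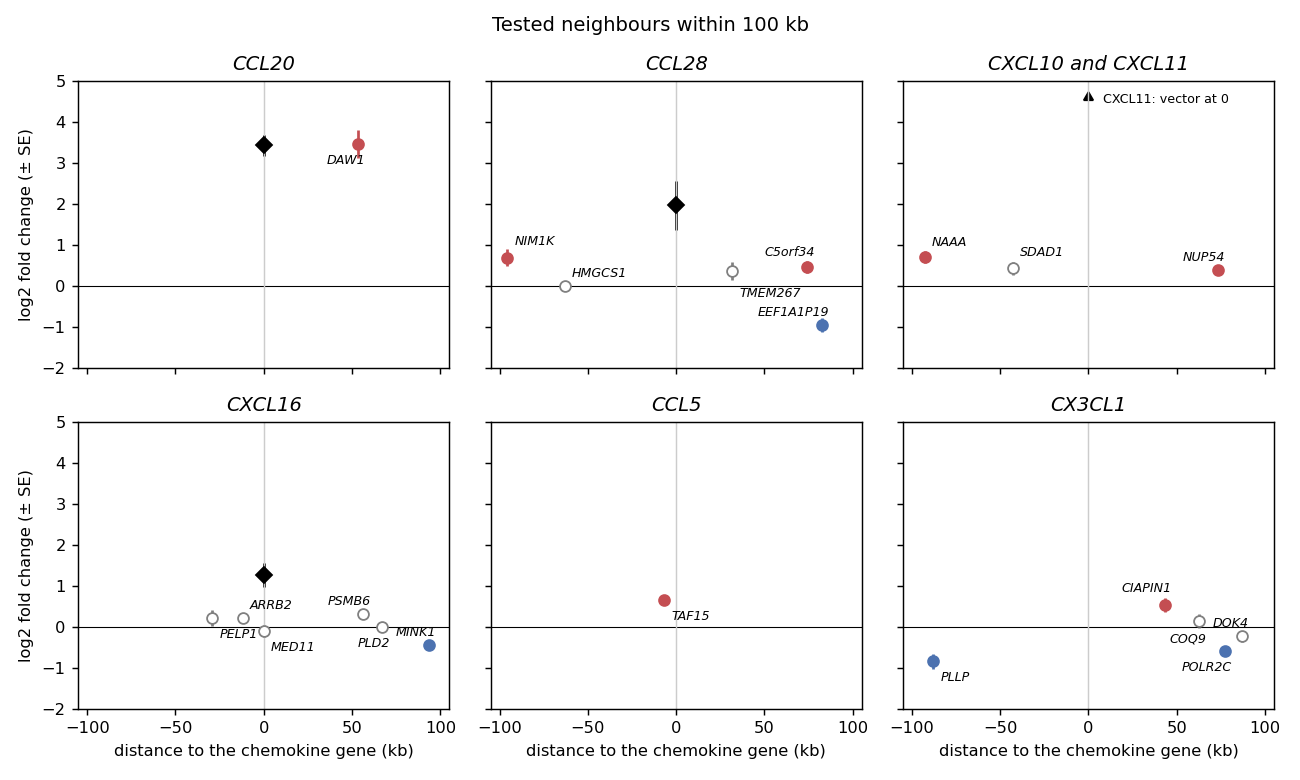
Log2 fold change with SE of the tested genes within 100 kb of 6 chemokine loci against their distance to the chemokine gene in kb (to CXCL11 in the shared panel), with lower coordinates to the left. Black diamonds are CCL20, CCL28 and CXCL16, red marks rose, blue marks fell and open grey marks did not pass the test. The black triangle is CXCL11, set at an arbitrary height because its vector count is 0. CCL5, CX3CL1 and CXCL10 were not tested and have no mark. CCL20 stands at 3.43 and DAW1 at 3.46, and all other neighbours lie within 1 log2 unit of 0.

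CXCL16 had the highest mean CPM of the 9 and was used to look for genes with a like pattern over the 6 libraries. Among 15080 genes with a mean of at least 1 CPM, those with the highest Pearson correlation of log2 CPM were FAM122A (r = 0.998), ZDHHC21 (0.996) and CCND3 (0.996), the last a cyclin gene. The points share the group difference, and 1408 genes had r over 0.9, so such values describe a common pattern in these libraries.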

How the data were processed

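The authors deposited 1 table with whole-number read counts and FPKM per gene and library, with gene names and positions. Tools listed in the submitters' processing notes are HISAT2 2.1.0, StringTie 1.3.4b, CASAVA 1.8 and edgeR, with the builds GRCh38 and hg38. Their roles, the counting options and any strand setting are not given in those notes. Per the file headers, columns are named for control or BHLHE22 and a replicate number. The deposited FPKM equals the deposited count divided by the library's total count and by a gene length that is the same in all libraries, within 0.1% for 100% of 26866 genes.

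Counts were fitted with edgeR 4.0.16 (R 4.3.3): filterByExpr (minimum count 10, minimum total 15), TMM scaling, robust quasi-likelihood, group as the only term, 2-sided, Benjamini-Hochberg over the 15945 tested genes, called at an adjusted p under 0.05. The common biological coefficient of variation was 17.0%. The libraries differed by more than sampling noise, with a chi-square per degree of freedom of 11.0 to 22.5 within groups and 69.2 to 136 between them. Genes under the filter are given as counts, with an exact conditional 95% interval of the scaled count ratio or a floor of 3 counts over a group at 0. That floor takes the counts of the other group without error.

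The members and gene lists were chosen with earlier results of these data known. Named genes are the 9 members, BHLHE22, up to 4 called genes with the smallest p per list, the members' receptors, up to 3 called neighbours within 100 kb per member, nearest first, and the 3 genes most like the highest member; others are said to be named after their values were seen. Some genes that the rule names are not reported here, while the list counts include them. Alternatives were a replicate block, DESeq2 size factors, unscaled library sizes, DESeq2 1.42.0, limma-voom (limma 3.58.1), a filter of 1 CPM in 3 libraries, no filter beyond 1 count, a threshold of 0.01, and leaving out each library. Levels per kilobase of merged GENCODE 29 exons were added after the data were seen. Tested on simulated data (3 draws of all 15945 genes), the edgeR fit called 13.5% of the genes set to 1.5-fold and 86% of those set to 3-fold. Of its calls, 10.2% were false, above the nominal 5%. Far fewer genes were set to change per draw than the 7876 called in the data. The cutoff depends on that share, so these rates do not carry over to the reported fit.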

Additional observations from a re-analysis of the deposited data

How the results depend on the processing

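The 4 tested chemokine genes kept their direction in all 52 values from 13 alternative fits and their call in 46; the 6 lost calls were those of CCL28, 5 given above and 1 with the replicate block (adjusted p = 0.102, edgeR quasi-likelihood). No pattern shared by same-numbered libraries was seen: their deviations correlated at -0.0267 to 0.0105, and no library is labelled with a shared batch. With 3 libraries per group, these values cannot exclude that same-numbered libraries were handled together. The block left 7292 called genes against 7876, with 3 of the 9 chemokine genes called. The 29 other named genes kept their direction in all 377 values and their call in 353. At a threshold of 0.01, 2 of the 9 chemokine genes rose, 3 proteases fell, 3 interferon genes rose, 1 NF-kappaB gene rose and 1 fell, and 3 neighbours rose. With no filter beyond 1 count, 3 other ligands fell, 4 receptors and 1 protease rose, and 2 interferon genes fell. Also, 2 interferon genes fell with the replicate block, DESeq2 size factors, DESeq2 and the filter of 1 CPM in 3 libraries. With unscaled library sizes, where 64.0% of called genes were higher against 50.7%, 1 protease rose and 3 fell, and 7 NF-kappaB genes rose and 1 fell. Leaving out each library in turn gave 3 to 5 chemokine genes that rose, 1 to 2 other ligands that fell, 2 to 4 receptors that rose, 0 to 1 proteases that rose and 3 to 5 that fell, 4 to 6 interferon genes that rose and 1 to 2 that fell, 1 to 4 NF-kappaB genes that fell and 4 to 7 neighbours that rose. The causes were not tested. Depth limits CCL2, CCL5, CX3CL1, CXCL10 and CXCL12, with at most 37 counts each in 6 libraries.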

Other observations

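Some chemokine genes outside the 9 were too low to be tested and are named here after their values were seen. CCL24, an eosinophil chemokine that shares the receptor CCR3 with CCL26, had 17, 12 and 8 counts in vector libraries and 2, 4 and 1 in BHLHE22 libraries. The groups did not overlap, and the scaled count ratio was 0.184 with an exact 95% interval of 0.0691 to 0.417. XCL1, a lymphocyte chemokine, had 2, 6 and 3 counts in vector libraries and none in BHLHE22 libraries. That is 3.78-fold lower over a floor of 3 counts, and the exact 95% upper limit of its ratio was 0.387. CCL22, which binds CCR4, had 6 counts in vector and 12 in BHLHE22 libraries, with overlapping groups. CXCL9, the other CXCR3 ligand, had no count in any library, which allows up to 3 counts per group.

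The protease gene MMP7 had no count in vector libraries and 8, 10 and 8 in BHLHE22 libraries. That is 8.41-fold higher over the same floor, and the exact 95% lower limit of its ratio was 6.36. CD14, a monocyte marker that was among the blood-cell genes, stood at 2.45 ± 0.59 CPM in vector and 0.473 ± 0.111 CPM in BHLHE22 libraries, while PTPRC, which marks all leukocytes, had 3 counts in the whole series.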
